A study of Mus musculus with 8 samples.

Results

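Junctions that start and end inside 1 exon block of their gene were described here: 4421 of the 134051 exon junctions in the table (3.30%), in 2346 of 13378 genes (17.5%). An exon block is a stretch of a gene that any annotated transcript keeps as exon, and its parts are numbered as regions. A junction such as E4.2-E4.4 leaves region 2 of block 4 and enters region 4 of the same block, skipping what lies between. The members were every row whose name, after the gene, has the form Ea.b-Ec.d with c equal to a and no side named after an intron, and 2 further rows with a genome position appended to such a name were left out by that form.

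RNA came from FT1CL, a mouse acute myeloid leukemia line, in 4 libraries labelled Cop1 +/+ with no treatment and 4 labelled Cop1 ko/ko, in which 4-hydroxytamoxifen had been given to delete Cop1. All 8 share an origin: bone marrow of a Cop1 cKO/Rosa26-Cre-ERT2 mouse aged 8 weeks, taken 5 days after 150 mg/kg 5-fluorouracil, was transduced with a pMYs retrovirus carrying Trib1, and cells grew in medium with interleukin-3 at 5 ng/ml and 10% serum. Genotype and drug changed together and cannot be told apart. The series describes 1 line, and no label tells whether the libraries of a group were grown apart. The p-values below therefore rest on differences among these libraries, part of which can be technical.

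Most introns of a mammalian gene are cut out whole, so the exons on either side become neighbouring blocks. An intron falls inside a block when exons of other annotated transcripts run across it, as in intron retention. Alternative donor (5′) or acceptor (3′) splice sites divide a block further into regions. A junction within a block can therefore be the ordinary splice of nearly all the gene's RNA, or a rare choice beside a common one. The spliceosome recognises an intron by short motifs at its ends, in most cases GT at the donor and AG at the acceptor.

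Eef1a1, the translation elongation factor that carries aminoacyl-tRNA to the ribosome, shows what a member is and how its values can differ between libraries. Its block 4 (ENSMUSG00000037742, chromosome 9, minus strand, build mm10) holds 4 members, each a short intron that a retained-intron transcript of the Gencode M21 annotation keeps, lying between coding parts of the gene. They are printed 5′ to 3′ from that transcript, with 6 flanking exon bases on each side and the GT and AG of the intron in capitals.
Eef1a1 E4.2-E4.4: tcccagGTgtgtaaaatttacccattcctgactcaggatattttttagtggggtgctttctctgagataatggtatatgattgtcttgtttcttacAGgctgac
Eef1a1 E4.5-E4.7: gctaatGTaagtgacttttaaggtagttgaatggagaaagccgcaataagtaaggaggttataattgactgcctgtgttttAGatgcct
Eef1a1 E4.10-E4.12: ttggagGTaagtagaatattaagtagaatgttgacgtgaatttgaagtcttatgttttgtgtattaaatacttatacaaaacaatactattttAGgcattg
Eef1a1 E4.14-E4.16: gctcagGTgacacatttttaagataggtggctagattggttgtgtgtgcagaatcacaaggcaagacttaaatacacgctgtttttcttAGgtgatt

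In that order the introns span chr9:78480149-78480240 (92 nt), chr9:78479775-78479851 (77 nt), chr9:78479535-78479623 (89 nt) and chr9:78479193-78479277 (85 nt). All 4 begin with GT and end with AG, and their GC content ran from 23.6% to 38.8%. All 4 are short beside the other introns of the table.

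Reads on these 4 junctions were either very high or in single digits. E4.10-E4.12 had 34353, 29651, 26049 and 24971 reads in wild-type libraries 1 to 4, and 1, 19295, 1 and 1 in knockout libraries 1 to 4. E4.14-E4.16 had 1, 32709, 1 and 2 in wild type and 32223, 2, 2 and 1 in knockout. E4.2-E4.4 had 38782 reads in wild-type library 3 and 2 to 5 in the other 7. E4.5-E4.7 never had more than 6. No 2 of the 4 junctions were high in the same set of libraries. The junction between the neighbouring blocks 2 and 3, E2.1-E3.2, had 12452 to 21905 reads in all 8 libraries, so the RNA of the gene was read in each of them. The other neighbouring-block junctions were nearly unread throughout: E3.2-E4.2 had 8 to 25 reads and E4.16-E5.1 had 1 to 9. Low values were thus not confined to the members. Eef1a1 has near-identical copies elsewhere in the genome, and how reads that fit several places were counted is not given in the sources used here, which leaves these values uncertain.

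**Figure D1:**
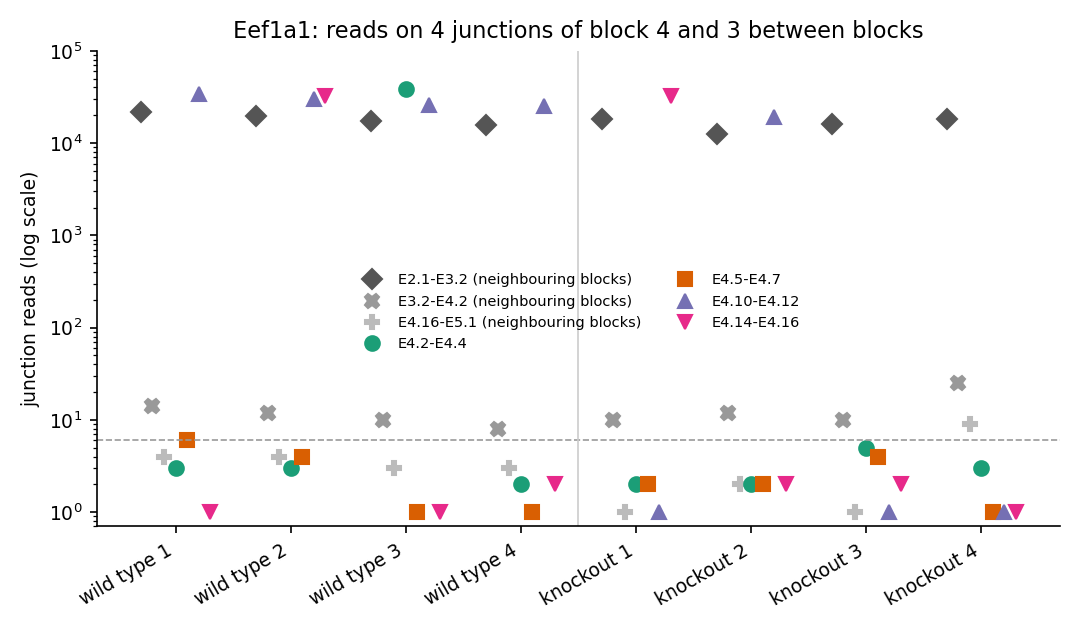
Reads on 4 junctions inside block 4 of Eef1a1 and on 3 that join neighbouring blocks, in each library (log scale). The dashed line marks 6 reads. E2.1-E3.2 lies between 12452 and 21905 everywhere and the other 2 between blocks at 25 or below, while each block 4 junction is either at 19295 or more or at 6 or below.

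Beyond this gene, members were mostly short introns with ordinary ends. The table carries no coordinates, so blocks were rebuilt from Gencode M21, and positions were accepted only for the 4908 genes in which every deposited name was found. This placed 1061 members in 612 genes. Their introns had a median length of 155 nt (quartiles 94 and 268 nt), against 1250 nt for 27658 introns between neighbouring blocks placed the same way and 550 nt for the 5180 of these that lie in the same genes. At most 200 nt was the length of 62.1% of members, 13.7% of neighbouring-block introns and 28.1% of those in the same genes. Of 1000 members with sequence, 981 (98.1%) ran from GT to AG, 12 from GC to AG and 7 had other ends, and the median GC content was 54.7%.

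**Figure D2:**
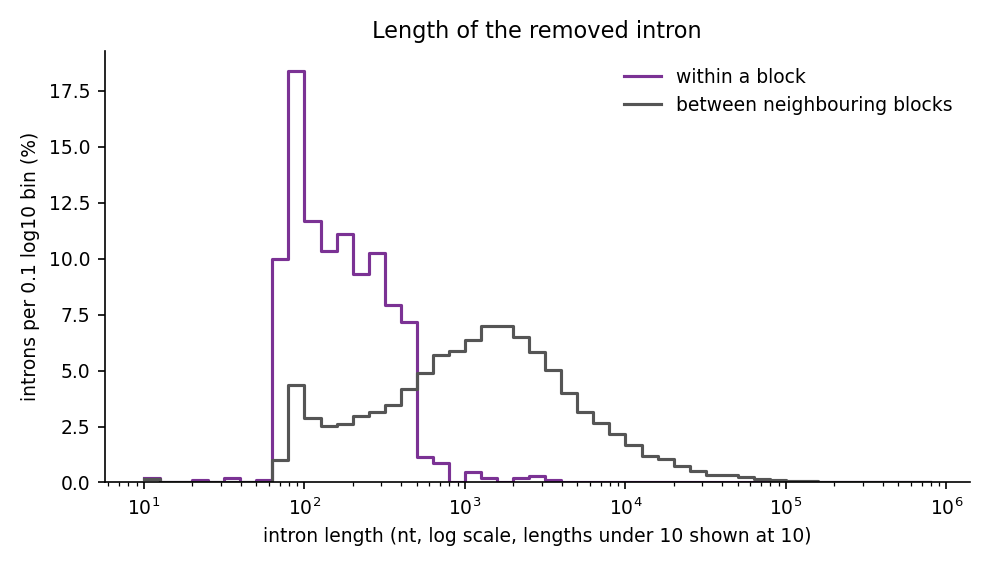
Length of the intron that each placed junction removes (nt, log scale), as the percent of introns per bin, for 1061 junctions within a block and 27658 between neighbouring blocks. Junctions within a block peak near 100 nt (median 155 nt), and those between blocks above 1000 nt (median 1250 nt).

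Most members lay in coding stretches, as did most introns between neighbouring blocks. In 864 of the 1061 placed members both splice sites were inside the coding part of the gene, in 112 in the 5′ UTR, in 32 in the 3′ UTR and in 53 in no coding transcript. Of the 27658 neighbouring-block introns, 24048 were in the coding part and 1550 in the 5′ UTR. Members were thus less often coding and more often in the 5′ UTR. An annotated exon covered the whole intron in 1011 (95.3%), which follows in large part from how blocks are built. A transcript annotated as retained intron did so in 681 (64.2%), and coding sequence of another transcript in 27 (2.54%), of which 15 had a length divisible by 3. The names themselves depended on retained-intron transcripts: 54.0% of member names with a gene in the annotation were found when these were used and 13.7% when they were left out, against 72.8% and 72.2% of neighbouring-block names.

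Members ranged from main splices to rare ones. In 3041 (68.8%) the sides lay 2 regions apart, skipping 1 region, and the longest jump was 22 regions. One member was held by 1355 genes, 2 by 485, 3 to 5 by 436 and 6 or more by 70. At least 1 side was shared with another junction of the gene in 1018 members (23.0%), against 11.7% of junctions between neighbouring blocks, which is where a choice between splice sites can be read. The median member level was 52.7% of the gene's most-read junction (63.8% for neighbouring-block junctions), and 20.6% of members lay under 10% of it (10.5% for neighbouring-block junctions).

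Libraries held 17333302 to 22469109 junction reads, and the counting noise on a single junction depends on its own reads. The reads are given as recovered from the deposited values, scaled where stated to the mean library total. Cop1 had 159 to 166 reads per 1000000 junction reads (RPM) over its 19 junctions in wild type and 66.7 to 81.3 in knockout, and none of its junctions was a member. Markers of myeloid leukemia cells were all 13 in the table, with a summed level of 2270 to 5365 RPM in wild type and 6078 to 8937 in knockout. A mast cell and basophil list was also high in all libraries (11544 to 16741 RPM, mostly Cpa3, all 5 markers in the table). T cell markers summed to at most 12.9 RPM and B cell markers to at most 3.38. Megakaryocyte markers summed to 518 to 901 RPM (mostly Itga2b, all 4 in the table), stroma and endothelium markers to 236 to 429 (nearly all Pecam1, 3 of 6 in the table) and erythroid markers to 37.3 to 169 (all 5 in the table). Epithelium markers (2 of 4 in the table, mostly Cdh1) gave 58.3 to 185 RPM in wild type and 162 to 722 in knockout. The genes Cd3e, Cd2, Ms4a1, Pax5, Col3a1, Cdh5, Kdr, Krt8 and Krt18 were not in the table. The part of these differences in the junction results was not tested. The libraries numbered 4 deviated together from their group means (r = 0.550 across genes), so results were also computed without both. The 2 calls given further on were made again without them, and the difference in near-floor values between junction classes was then 5.01 percentage points.

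Values near the floor were common among members. A value was called near the floor when it held at most 6 scaled reads although the rest of the gene predicted at least 100. Among the 1879 members that reached 100 scaled reads in some library, 1743 of 15032 values (11.6%) met this, in 504 members (26.8%) of 378 genes. None of these 1743 values was 0 reads. There were 849 with 1 read, 450 with 2, 205 with 3, 148 with 4, 70 with 5 and 21 with 6. A share of 16.6% of the exon-to-exon junctions between blocks had such a value.

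Reads were either close to the prediction or almost absent. Of 12911 member values with a prediction of at least 100 reads, 83.7% lay between 0.4 and 1.6 times the prediction and 14.3% under 0.05 times. Only 120 values (0.929%) fell between 0.05 and 0.4 times, and 1.15% above 1.6 times. The prediction is the sum over the gene's other junctions times the median ratio seen where the member was read. Closeness to it is therefore partly built in, and wholly so in the library of a member well read in only 1. The prediction can also miss by far. For Calm2 E3.1-E3.3, in a calmodulin gene, the prediction reached 360196 reads although the junction never had more than 3086. Reads, not predictions, are therefore given for single junctions.

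**Figure D3:**
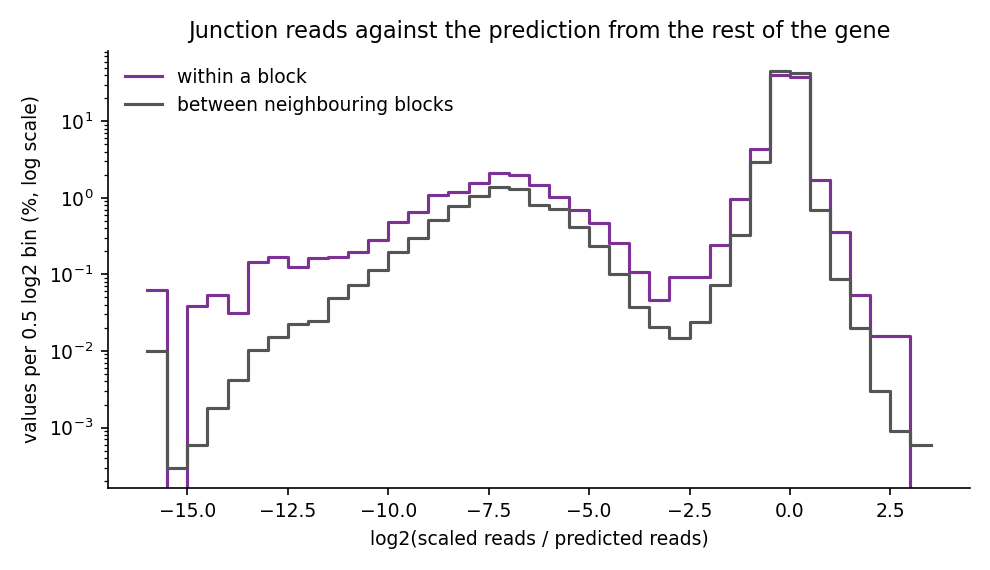
Scaled reads divided by the reads predicted from the rest of the gene (log2), as the percent of values per bin (log scale), for junctions within a block and between neighbouring blocks. Both curves have a main peak at 0 and a broad second one near -7, with a gap between -4 and -2.

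Other abundant housekeeping genes gave the same kind of values. Gapdh E5.2-E5.4, in the glycolysis enzyme gene, had 14948, 1, 13458 and 10270 reads in wild type and 17159, 16030, 17227 and 20101 in knockout, so 1 library of 8 stood apart. Rps6 E2.1-E2.3, in a small-subunit ribosomal protein gene, had 11413, 1, 2 and 1 in wild type and 9908, 1, 9082 and 2 in knockout. Rps6 E1.4-E1.6 in the same gene had 1, 4661, 4422 and 4460, then 5205, 3803, 4346 and 1. In Rps6 the 2 junctions were therefore low in different libraries, and only knockout library 4 was low at both.

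Calm2 E3.1-E3.3 had 1, 3086, 1 and 1 reads in wild type and 2750, 2230, 3 and 2 in knockout. Gabarap E3.1-E3.3, in the gene of an autophagosome protein, had 1675, 1462, 1 and 1, then 2267, 2, 2 and 3. Rpl6 E2.2-E2.4, a large-subunit ribosomal protein junction, had 2, 10293, 4 and 1, then 10179, 1, 3 and 10865. Each of these had high and low libraries in both groups.

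A pair of further junctions was read in few libraries. Hspa8 E3.12-E3.16, in the gene of a constitutive heat shock chaperone, had 8464 reads in knockout library 3 and 1 to 9 in the other 7. Rpl13 E3.1-E3.3 had 10905 and 13412 reads in knockout libraries 2 and 4, and 1 or 2 in the other 6. Ribosomal protein genes and such chaperones have near-identical copies, with the same limit as for Eef1a1.

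Affected members of 1 gene were near the floor together in some libraries and apart in others. Over pairs of affected members of 1 gene, both were near the floor in 318 cases of a pair in a library and only 1 of the 2 in 665, counts that were not set against a chance level. Affected members differed in how many libraries they missed: 122 were near the floor in 1 library, 89 in 2, 54 in 3, 61 in 4, 75 in 5, 59 in 6 and 44 in 7. A member low in all 8, as Eef1a1 E4.5-E4.7 was, cannot be found by this rule, since it never reaches 100 reads. There were 15 members that never had more than 6 scaled reads in genes with another junction of at least 1000.

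The percent of near-floor values overlapped between the groups. They made up 11.7 ± 0.779% of member values in wild type (10.6% to 12.5%) and 11.5 ± 0.648% in knockout (10.7% to 12.2%; SD, n = 4), with overlapping groups (exact permutation p = 0.86, two-sided, smallest possible 0.0286). Of the 504 affected members, 330 had such values in both groups, 90 in wild-type libraries only and 84 in knockout libraries only.

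In 4 of the 61 members near the floor in 4 libraries, these were all libraries of 1 group and none of the other. The share of junctions between blocks with this pattern is not given here, so the count is not read as tied to genotype. Rps9 E3.2-E3.8, the main junction of a small-subunit ribosomal protein gene (chromosome 7, 3703993 to 3706897), had 14700, 13150, 12554 and 12283 reads in wild type and 1, 3, 3 and 1 in knockout. The 2 members that pass through region 4 instead were higher in knockout: E3.2-E3.4 had 31, 39, 47 and 49 reads, then 63, 74, 79 and 107. E3.4-E3.8 had 198, 244, 321 and 251, then 389, 414, 413 and 479. Neither pair of groups overlapped, but these 2 members were picked after their values were seen. E3.4-E3.8 was 1.91 ± 0.481% of the reads entering region 8 in wild type against 99.5 ± 0.282% in knockout (SD, n = 4). This percent includes the near-floor junction and is high in knockout because E3.2-E3.8 had almost no reads there. The reads gained by E3.4-E3.8 were far fewer than those missing from E3.2-E3.8.

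Abcf1 E20.5-E20.8, in the gene of an ATP-binding protein of translation initiation, had 441, 487, 446 and 485 reads in wild type and 1, 2, 1 and 1 in knockout. Its intron is chr17:35957907-35958072 (166 nt, minus strand). Another member next to it in the same block, E20.2-E20.4, had 501 to 537 reads in wild type against 310 to 574 in knockout, so the block was read in both groups. Other Abcf1 junctions were low in libraries of both groups: E6.1-E7.1 had 584 reads in wild-type library 3, 484 and 450 in knockout libraries 1 and 2, and 2 to 6 elsewhere. E7.1-E8.1 was read in the same 3 libraries (545, 498 and 406 reads) and had 2 to 5 elsewhere.

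Hip1r E28.1-E28.3, in the gene of a clathrin- and actin-binding endocytosis protein, had 224, 181, 134 and 112 reads in wild type and 2, 2, 2 and 1 in knockout. The member E27.4-E27.6 of the same gene had 97 to 188 in wild type and 183 to 287 in knockout. Between blocks, E10.1-E11.1 and E11.1-E12.1 of Hip1r had 90 to 331 reads in wild-type libraries 2 to 4 and knockout library 1, against 1 to 3 in the others. Spag5 E6.1-E6.3, in a mitotic spindle gene, went the other way, with 1, 1, 1 and 2 in wild type and 106, 88, 60 and 75 in knockout. Spag5 E7.1-E7.3 had 69 to 97 in wild type and 40 to 83 in knockout. These 4 junctions were chosen for this pattern, so their difference between groups is a description without a test.

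Members held near-floor values more often than other exon-to-exon junctions, but hardly more than the other junctions of their own genes. Per library, 10.6% to 12.5% of member values were near the floor, and 6.07% to 7.05% of the values of junctions between blocks. Members were higher in 8 of 8 libraries, by 5.10 ± 0.530 percentage points (SD, n = 8; exact sign-flip permutation p = 0.0078, two-sided, the smallest possible). Within the 1090 genes that held both kinds, pooled and not matched gene by gene, the percentages were 11.5 and 10.9. There the difference was 0.53 ± 0.601 percentage points (SD, n = 8), with members higher in 7 of 8 libraries (exact sign-flip permutation p = 0.031). The same junctions were compared in every library, so both p-values concern recurrence over libraries and not the spread over junctions or genes. Junctions between blocks in genes with no well-read member had 5.50%. With introns of at most 200 nt in both classes, 291 members had 16.4% and 1536 other junctions 10.2%.

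**Figure D4:**
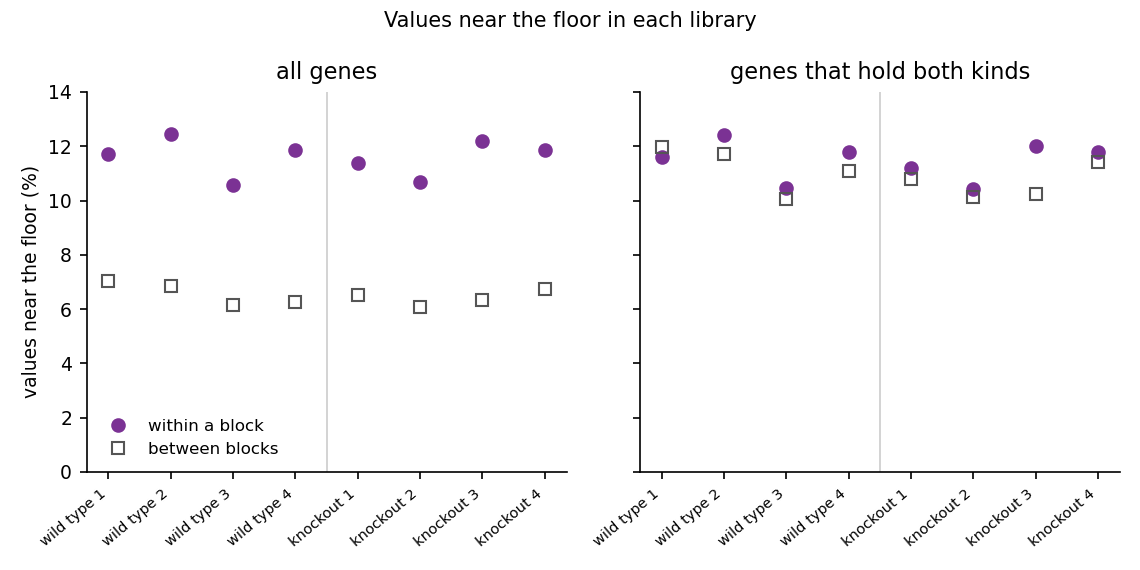
Percent of values near the floor in each library, for junctions within a block (filled circles) and between blocks (open squares), over all genes and over the 1090 genes that hold both kinds. The classes are apart by 4.44 to 5.84 percentage points over all genes and by -0.37 to 1.78 in the genes that hold both.

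The percent of all junction reads that fell on members was 5.49 ± 0.0920% in wild type (5.37% to 5.59%) and 5.29 ± 0.191% in knockout (5.06% to 5.53%; SD, n = 4). The groups overlapped and did not differ beyond their spread (exact permutation p = 0.086, two-sided). Over junctions with no near-floor value the percents were 4.86 ± 0.0291 and 4.79 ± 0.0454 (exact permutation p = 0.057, two-sided). Knockout was lower in 4 of 4 pairs of libraries with the same number here, by a paired exact sign-flip permutation p of 0.125, the smallest that 4 pairs allow. Over all junctions it was lower in 3 of 4 pairs (paired exact permutation p = 0.25).

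The share of a member in its gene's reads was then compared between genotypes with limma's diffSplice, which sets each junction's log2 change (knockout minus wild type) against the rest of its gene. The SE it gives pools the residual variance over the tested junctions of a gene. A sparsely read junction thus carries the same SE, and a p-value resting on it, as the well-read junctions beside it. A member with a steady share can likewise carry an SE wider than its own spread, as Cyba E3.2-E3.4 does further on. A mean of at least 100 scaled reads was reached by 1344 members. Of these, 236 were left out for a near-floor value and 97 because they were alone in their gene, leaving 1011 tested members in 661 genes. The counts below concern these and not all members. Their median share of the gene's reads was 11.3% in both groups, with quartiles of 6.48% and 21.1% in wild type.

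Few shares changed. The adjusted p was under 0.05 for 2 of 1011 members, both higher in knockout (0.198%), where 0.0283% of all 35325 junctions tested were called in either direction and 0.0142% higher. Groups did not overlap in 44 members (4.35%), 22 higher and 22 lower, against 3.63% of all junctions (1.77% higher and 1.87% lower). The unadjusted limma p was under 0.05 for 21 members (2.08%) and 1.63% of all junctions. Both percents are lower than a calibrated test gives at that limit without any change. A member that was not called is therefore not shown to be unchanged. The median log2 change was 0.00 for members and -0.00 for all junctions, the median size of change 0.07 in both, and 94.7% of members and 94.9% of all junctions lay within 0.25 of 0.

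**Figure D5:**
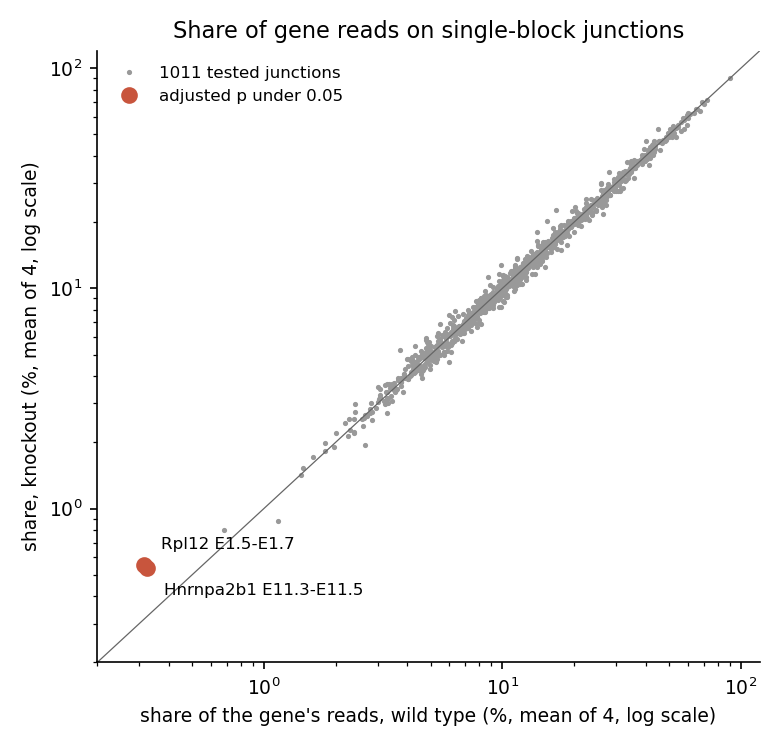
Mean share of the gene's reads on each of 1011 tested members in wild type and knockout (%, log scales), with the line of equality. The 2 called members, Rpl12 E1.5-E1.7 and Hnrnpa2b1 E11.3-E11.5, lie above the line at the low end, at shares under 1%.

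Rpl12 E1.5-E1.7 rose. Rpl12 encodes a large-subunit ribosomal protein (chromosome 2, 32961559 to 32965345). The junction had 119, 95, 90 and 114 reads in wild type and 160, 154, 193 and 272 in knockout, with every knockout library above every wild-type one. Its share of the gene's reads was 0.316 ± 0.0408% and 0.552 ± 0.126% (SD, n = 4), the lowest wild-type share among the tested members. The log2 change against the gene was 0.78 (SE 0.11, limma adjusted p = 0.0012). This SE is shared with the gene's well-read junctions and is not the spread of E1.5-E1.7 alone.

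The member E1.4-E1.7 enters the same region 7 from 1 region further upstream and is the common choice, with 13182 to 15619 reads in wild type against 12285 to 16153 in knockout. E1.5-E1.7 made up 0.740 ± 0.0875% of the 2 junctions in wild type against 1.29 ± 0.291% in knockout (SD, n = 4), again with no overlap. The common junction itself gave a log2 change of -0.26 (SE 0.11) and did not pass. The members E3.1-E3.5 and E3.5-E3.8 of Rpl12, measured the same way, gave -0.25 and -0.27 and did not pass.

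The share of Hnrnpa2b1 E11.3-E11.5 also rose. Hnrnpa2b1 encodes an RNA-binding protein of the hnRNP family, which acts in splicing (chromosome 6, 51460932 to 51469894, minus strand). The junction had 158, 149, 142 and 156 reads in wild type and 155, 196, 188 and 207 in knockout, so the reads themselves overlapped. Its share of the gene's reads did not overlap, at 0.324 ± 0.0126% and 0.539 ± 0.0845% (SD, n = 4), and was the next lowest wild-type share after Rpl12. The log2 change was 0.64 (SE 0.10, limma adjusted p = 1.23e-04), where the SE is again pooled over the gene. The junction's own log2 change in RPM was 0.24, smaller than this change against the rest of the gene.

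The junction that enters the same region 3 from the block before, E10.1-E11.3, also rose against the rest of the gene. It had 264, 247, 347 and 296 reads in wild type and 271, 353, 372 and 437 in knockout (log2 change 0.65, limma adjusted p = 9.67e-05). It is no member and was picked here after its values were seen. E10.1-E11.1, into the first region of the block, had 4617 to 5506 reads and then 2645 to 4218, with a log2 change of -0.39 that did not pass (limma adjusted p = 0.44). Of the 2 junctions into region 5, E11.3-E11.5 made up 17.9 ± 1.91% in wild type against 20.3 ± 1.61% in knockout (SD, n = 4), with overlapping groups. Neither called junction could be placed on the genome, so no sequence is given for them. Both calls ended when limma was run on the logit of the share (adjusted p = 0.48 for Rpl12 and 0.29 for Hnrnpa2b1), a setting that called no junction at all, while the changes there, in log2 odds, were 0.79 and 0.72.

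A log2 change beyond 1 was found in 3 tested members, and none passed. Arhgap1 E12.1-E12.3 had 194, 176, 202 and 172 reads in wild type and 192, 163, 218 and 278 in knockout, for a log2 change of 1.69 with an SE of 1.63. The rest of its gene predicted 21.3 reads in knockout library 4, against 88.9 to 212.8 in the other libraries. Sh2d5 E7.2-E7.4 had 191, 206, 1 and 91, then 126, 80, 82 and 110, for 1.74 with an SE of 1.54. Its single read in wild-type library 3 came beside a prediction of 86.9 reads, under the 100 that the near-floor rule asks for. The member E10.1-E10.3 of ENSMUSG00000029144, a gene without a symbol here, had a log2 change of 1.29 with an SE of 1.09.

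No change of share passed among the most-read members. Rpl13a E9.2-E9.4 had 19752 to 24269 reads in wild type against 17752 to 23813 in knockout, and its share was 35.1 ± 0.264% and 35.1 ± 0.0281% (SD, n = 4). Actb E3.6-E3.11, in the β-actin gene (454 nt intron, chr5:142904783-142905236), had 14107 to 18635 and 19044 to 22066 reads, and 34.6 ± 0.797% and 34.9 ± 0.530%. Rps2 E2.7-E2.9 had 60.1 ± 0.683% and 59.5 ± 1.03%, and Rps18 E4.4-E4.6 had 43.6 ± 0.233% and 44.1 ± 0.311%. Shares overlapped between groups in each of these. Their log2 changes ran from -0.04 to 0.03 and none passed.

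Gas5, a small nucleolar RNA host gene without a protein product (chromosome 1, 161034422 to 161038539), held the most members, 13, all in block 4. Of these, 11 were tested and none passed. Its most-read member, E4.17-E4.19, had 1021 to 1324 reads in wild type against 883 to 1458 in knockout and 16.5 ± 0.346% and 16.7 ± 0.609% of the gene's reads (SD, n = 4). The longest jump among those tested, E4.13-E4.35, had 72 to 137 and 77 to 139 reads. E4.27-E4.32 stood apart, with 8, 5, 1 and 2 reads in wild type and 939, 4, 710 and 931 in knockout. It was near the floor in 4 libraries and was not tested.

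Vps16, of the vesicle-tethering HOPS and CORVET complexes, and Hdac5, a histone deacetylase, were next by number of members. Vps16 had 6 tested members with log2 changes from -0.11 to 0.09. Its E3.3-E3.5 had 1 read in wild-type library 4 and 100 to 167 in the other 7. Hdac5 had 4 tested members with changes from -0.12 to 0.16. Its E19.1-E19.4 had 1 read in wild-type library 3 and in knockout libraries 1 to 3, and 203 to 283 in the other 4. None of these members passed.

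By gene list, members were few and their changes small. Among splicing factors, 24 members were tested, 1 rose (Hnrnpa2b1) and none fell, with a median log2 change of 0.01. Among cytosolic ribosomal proteins, 33 were tested, 1 rose (Rpl12) and none fell, with a median of -0.00. None passed among 4 of SR protein kinases (median 0.07), 6 of granulocyte genes (0.07), 7 of replication genes (0.05), 8 of ribosome assembly and MYC genes (-0.00) and 1 of the Cop1 ligase and Tribbles genes. Of nonsense-mediated decay genes 3 members were in the table and none could be tested. The median over all junctions tested was -0.00.

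In granulocyte and replication genes, levels and shares can be set side by side. Cyba E3.2-E3.4, in a subunit gene of the phagocyte NADPH oxidase, had 91.4, 95.1, 120 and 67.3 RPM in wild type and 214, 234, 221 and 113 in knockout, overlapping through knockout library 4. Its share was 19.6 ± 0.150% and 20.2 ± 0.273% (SD, n = 4), which did not overlap, for a log2 change of 0.06 (SE 0.32) that did not pass. Csf2ra E6.7-E6.9, in a GM-CSF receptor chain gene, had 2.98 to 5.40 and 7.08 to 11.5 RPM and overlapping shares of 9.81 ± 1.49% and 10.2 ± 0.844%.

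Mcm3 E14.1-E14.3, in a subunit gene of the replicative helicase, had 69.6, 66.0, 68.1 and 61.0 RPM in wild type and 43.1, 42.8, 41.7 and 44.8 in knockout. Its share was 9.57 ± 0.369% and 10.0 ± 0.535% (SD, n = 4). Pold2 E6.1-E6.3, of DNA polymerase delta, had 12.9 to 13.9 and 7.74 to 9.80 RPM and 14.6 ± 0.617% and 15.3 ± 1.27%. Levels in RPM did not overlap between groups in either, while shares did.

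Ncl E9.1-E9.3, in the nucleolin gene, had 2920 to 3368 and 1975 to 3016 reads and 6.31 ± 0.249% and 6.58 ± 0.223% of the gene's reads (SD, n = 4). Noc2l E3.1-E3.3, in a ribosome assembly gene, had 503 to 530 and 296 to 449 reads. Its share was 7.64 ± 0.177% in wild type and 6.98 ± 0.269% in knockout, without overlap, for a log2 change of -0.14 (SE 0.13) that did not pass. Cul4b E10.1-E10.3, in the gene of a scaffold of the Cop1 ligase, had 6.88 ± 1.07% and 6.29 ± 1.07%.

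In the kinases of SR splicing proteins, Clk1 E6.3-E6.5 had 125, 103, 100 and 115 reads in wild type and 183, 160, 139 and 231 in knockout. Its share was 5.95 ± 0.366% and 7.57 ± 1.37% (SD, n = 4), overlapping through knockout library 3, with a log2 change of 0.34 (SE 0.14) that did not pass. Clk4 E11.2-E11.4 had shares of 11.5 ± 1.21% and 12.1 ± 1.16%. Rpl10a E2.2-E2.4 had 1.14 ± 0.286% and 0.873 ± 0.312%, and a log2 change of -0.46 (SE 0.16) that did not pass. Ewsr1 E10.3-E10.9, in an RNA-binding protein gene, had 3.99 ± 0.947% and 4.80 ± 0.736%.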

How the data were processed

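The deposited table gave a signal per exon junction and library. Tested on the values, the deposited signal above a floor equals reads plus 1, divided by the total of the library and by 60 nt, so reads were recovered (100% of values above the floor whole within 0.001 of a read). The floor itself, 0.854 in all 8 libraries, does not follow this scale and was read as 0 reads. Trimmomatic 0.39 and kallisto with build mm10 are named per the submitters' processing notes; what aligned the reads and filtered junctions is not given in the sources used here.

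Libraries were scaled to RPM (reads per 1000000 junction reads). Shares of the gene's reads and their tests used junctions without a near-floor value. limma 3.58.1 (R 4.3.3) diffSplice with robust moderation was fitted on log2(RPM + 0.05) to all 35325 junctions averaging at least 100 scaled reads in genes with at least 2 of them, with Benjamini-Hochberg adjustment over all and a threshold of 0.05. The intended mean-variance trend is not an option of that function and was left out. All adjusted p-values are from limma. The script was tested on simulated data. Per-library measures were tested by exact permutation, two-sided (scipy 1.17.1). Scaled reads are reads brought to the mean library total.

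Replicate numbers paired the libraries: deviations correlated at 0.316, 0.293, 0.356 and 0.550 between libraries of the same number, above every other pair (highest 0.146). Every pair of libraries within a group differed beyond counting noise (chi-square at least 29.4 per degree of freedom). Exon blocks were rebuilt from Gencode M21, and intron sequences read from its retaining transcripts. Alternatives covered the pseudocount, the read minimum, the near-floor rule, scaling, the share scale, the replicate block and leaving out libraries; 4 further ones for the comparison of junction classes were chosen after seeing the data.

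Members and lists were chosen with earlier results of these data known. Named junctions were the calls without overlap, those near the floor in 1 group only, up to 6 others with most predicted reads, the 6 with highest RPM, all of the 3 genes with most members, and up to 2 per list with the smallest adjusted p. Junctions of Gapdh, Rps6, Rps9, Abcf1, Hip1r and Spag5 beside these, and the members beyond a log2 change of 1, were picked after their values were seen.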

Additional observations from a re-analysis of the deposited data

Results flagged for a closer look

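Of 30 groups of 4 libraries examined for a library far from the other 3, 4 were flagged, where chance flags about 1 in 20. Each is the lowest wild-type share of the gene's reads. Ewsr1 E10.3-E10.9 was at 2.58% in wild-type library 3 against 4.35% to 4.60% in the other 3. Clk1 E6.3-E6.5 was at 5.407% in wild-type library 2 against 6.10% to 6.17%. Mcm3 E14.1-E14.3 was at 9.022% in wild-type library 2 against 9.69% to 9.80%. Noc2l E3.1-E3.3 was at 7.378% in wild-type library 4 against 7.71% to 7.74%.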

How the results depend on the processing

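The 2 members called became 8 at a mean minimum of 30 scaled reads (6 higher, 2 lower), 0 with at least 300, 24 with at least 1 (14 and 10), 15 with near-floor junctions kept (10 and 5), 0 on the logit of the share, and 15 with the replicate block and near-floor junctions kept (9 and 6). Of the 15, 11 held near-floor values, and of the 8, 6 had a mean under 100 scaled reads. Among the 15, Rps9 E3.4-E3.8 held none, but its change of 12.93 mirrors the -12.93 of the near-floor E3.2-E3.8. Among the 8, some had libraries with 1 or 2 reads that the near-floor rule did not mark. Ppox E6.1-E6.3 had 2, 1, 1 and 2 reads in wild type and 2, 70, 87 and 84 in knockout. Lrpprc E9.6-E9.8 and Cyp4f16 E4.2-E4.4 also had such values. With the replicate block alone 2 members were called, as in 13 settings in all, while calls over all junctions went from 10 to 25. Calls over all junctions became 27 without both libraries numbered 4 and 20 without knockout library 4. At a mean of at least 30 they were 201, at least 300 1, at least 1 704, with near-floor junctions kept 185, and on the logit 0. Rpl12 E1.5-E1.7 and Hnrnpa2b1 E11.3-E11.5 averaged 148 and 170 scaled reads, so neither was tested at the minimum of 300. In the 17 settings that kept its call, Rpl12 E1.5-E1.7 had 0.65 to 1.08 and Hnrnpa2b1 E11.3-E11.5 0.57 to 0.72.

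The difference in near-floor percent between genotypes, -0.120 percentage points, reversed to 0.146 at a limit of 2 reads and 0.439 at 300 predicted reads, and lay between -0.475 and 0.160 when single libraries were left out. Changes that had not passed reversed for Clk4 to -0.0099 (at least 1 read), for Csf2ra to -0.0067 (at least 30 and at least 1) and -0.0041 (without both libraries numbered 4), and for Pold2 to -0.117 (near-floor junctions kept, with and without the replicate block). The causes were not tested. The difference between junction classes was 0.53 to 6.38 points over 19 alternatives. A count-model alternative was not run, since the shared floor kept the values from being accepted as counts. Depth kept the share test to the 1344 members averaging at least 100 scaled reads, and near-floor values took 236 of these out.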
